A study of Danio rerio with 6 samples.

Results

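The genes examined here carry the signal of the B cell receptor or set the fate of B cells: cd79a, cd79b, cd37, pax5, irf4b, ebf1a, blnk, btk, syk and prdm1a. They were chosen by gene symbol, and a name missing from the name table was looked up by its capital human-style form without the copy letter. The 10 names gave 11 of the 32057 genes in the table, because ebf1a and prdm1a were found only as EBF1, a symbol of 2 genes, and PRDM1. The name table does not say which EBF1 gene is ebf1a, so both are given with their identifiers. RNA was sequenced from whole kidney marrow of adult zebrafish, in 3 libraries from fish heterozygous for the rad21nz171 allele (rad21+/-) and 3 from their wild-type siblings, each library a pool of 3 fish. The allele is a nonsense mutation in exon 8 of rad21a, which encodes the subunit that closes the cohesin ring. It is a germline mutation, so every cell of the heterozygous fish carries it, and both groups come from crosses of heterozygous parents. Sex and exact age are not stated in the labels, and pooling hides differences between single fish.

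A B cell receptor is a membrane immunoglobulin held by the CD79A and CD79B chains, whose tails carry the tyrosine motifs that start signalling. In mouse and human, the kinase SYK binds those motifs once they are phosphorylated, and the adaptor BLNK then brings together SYK, the kinase BTK and phospholipase C gamma 2. EBF1 and PAX5 commit progenitors to the B lineage, IRF4 acts at several later steps, and PRDM1, also called Blimp-1, drives plasma cell differentiation. The kidney marrow is the main blood-forming tissue of adult fish and a site where B cells arise.

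The libraries differed in more than genotype. The targeted gene was examined first, and rad21a stood at 67.4, 61.6 and 61.98 TPM in heterozygous pools 1 to 3, against 110.1, 73.9 and 108.2 TPM in wild-type pools 1 to 3. Its groups did not overlap, but the difference did not pass the threshold (log2 fold change -0.58, SE 0.22, limma adjusted p = 0.30). TPM is an abundance scaled by gene length and to the same total in every library, and it keeps no read depth. Summed over 11 listed egg and gonad genes, wild-type pools 2 and 3 held 3771 and 1146 TPM and wild-type pool 1 held 63.2 TPM, against 2.85 to 54.5 TPM in the heterozygous pools. Neutrophil markers, 6 genes in sum, were highest in heterozygous pool 1, at 51224 TPM, against 19493 and 19808 TPM in the other heterozygous pools and 16306 to 24256 TPM in the wild-type pools. Over the 16537 genes with at least 1 TPM in at least 3 libraries, limma on log2(TPM + 1) called 227 at an adjusted p under 0.05, which is 1.37%. That count was 1088, 144 and 91 without wild-type pools 1, 2 and 3, and 127, 126 and 90 without heterozygous pools 1, 2 and 3.

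The receptor chains and the tetraspanin cd37 stood about 3-fold higher on average in the heterozygous marrow, the kinases and the adaptor blnk between 1.56-fold and 1.75-fold higher, and the regulators were low in both genotypes. None of the 9 genes that entered the test passed the threshold over all genes, where 0.81% of all tested genes were called higher and 0.562% lower. Of the 9, 6 had an unadjusted limma p under 0.05, against 7.12% of all tested genes higher and 7.88% lower. Among the 9, irf4b reached 1 TPM in heterozygous pools alone and entered only through them. It is 1 of the 6 with an unadjusted limma p under 0.05. Heterozygous pool 1 was the highest library for 10 of the 11 genes, as it was for 19.4% of the 28762 genes with any signal. In this bulk tissue, more cells of a type and more RNA per cell cannot be told apart.

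The chain cd79a (ENSDARG00000037473) stood at 100.2, 38.6 and 35.7 TPM in heterozygous pools 1 to 3, against 10.1, 17.2 and 23.2 TPM in wild-type pools 1 to 3. Its partner cd79b (ENSDARG00000104691) had 33.01, 11.7 and 17.1 TPM in heterozygous pools 1 to 3 and 4.37, 6.88 and 9.77 TPM in wild-type pools 1 to 3. For both chains every heterozygous pool lay above every wild-type pool, and heterozygous pool 1 stood well above the rest. The mean of cd79a was 58.1 ± 36.4 TPM in heterozygotes and 16.8 ± 6.57 TPM in the wild type (SD, n = 3 each), a 3.45-fold difference that was 2.2-fold without heterozygous pool 1. Its log2 fold change was 1.64, with a 95% interval from 0.51 to 2.77 (limma adjusted p = 0.21). For cd79b the means were 20.6 ± 11.1 TPM in heterozygotes and 7.01 ± 2.70 TPM in the wild type (SD, n = 3 each), with a log2 fold change of 1.37 and an interval from 0.34 to 2.39 (limma adjusted p = 0.23). The chains kept close proportions: cd79a made up 75.2%, 76.8% and 67.6% of their summed TPM in heterozygous pools 1 to 3, against 69.8%, 71.4% and 70.4% in wild-type pools 1 to 3.

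The tetraspanin cd37 (ENSDARG00000075515), a membrane organiser found on mature B cells in mammals, stood at 69.95, 36.1 and 45.8 TPM in heterozygous pools 1 to 3, against 9.93, 14.5 and 23.9 TPM in wild-type pools 1 to 3. It had the smallest p of the tested genes here, with a log2 fold change of 1.62 and an interval from 0.72 to 2.53 (limma adjusted p = 0.13). Groups did not overlap, and the ratio of the group medians, 3.15, was near the ratio of the means, 3.14. Without heterozygous pool 1 the cd37 means were 2.54-fold apart.

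These 3 genes were also compared without the libraries that stand apart. With the egg-rich wild-type pools 2 and 3 left out, the log2 fold changes of cd79a, cd79b and cd37 were 2.25, 1.89 and 2.19. The 1 wild-type library left, pool 1, was the lowest library for each of these 3 genes. Their fold changes therefore had to be larger there, and the part of egg tissue in them was not tested. Without heterozygous pool 1, which held the most neutrophil transcripts, the log2 fold changes of the 3 genes were 1.17, 0.98 and 1.37 (limma adjusted p = 0.35, 0.41 and 0.31). For the 3 genes heterozygous pools 2 and 3 lay above all wild-type pools. The neutrophil sums of heterozygous pools 2 and 3 were within the wild-type range. The gene lyz made up 15473 of 19493 TPM and 15911 of 19808 TPM of these 2 sums. The listed marker adam8a, 1 of 6, was above its own wild-type range in heterozygous pools 2 and 3, at 51.2 and 41.8 TPM against 22.3 to 36.9 TPM. The part of neutrophils in the values of the 3 genes was not tested.

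**Figure D1:**
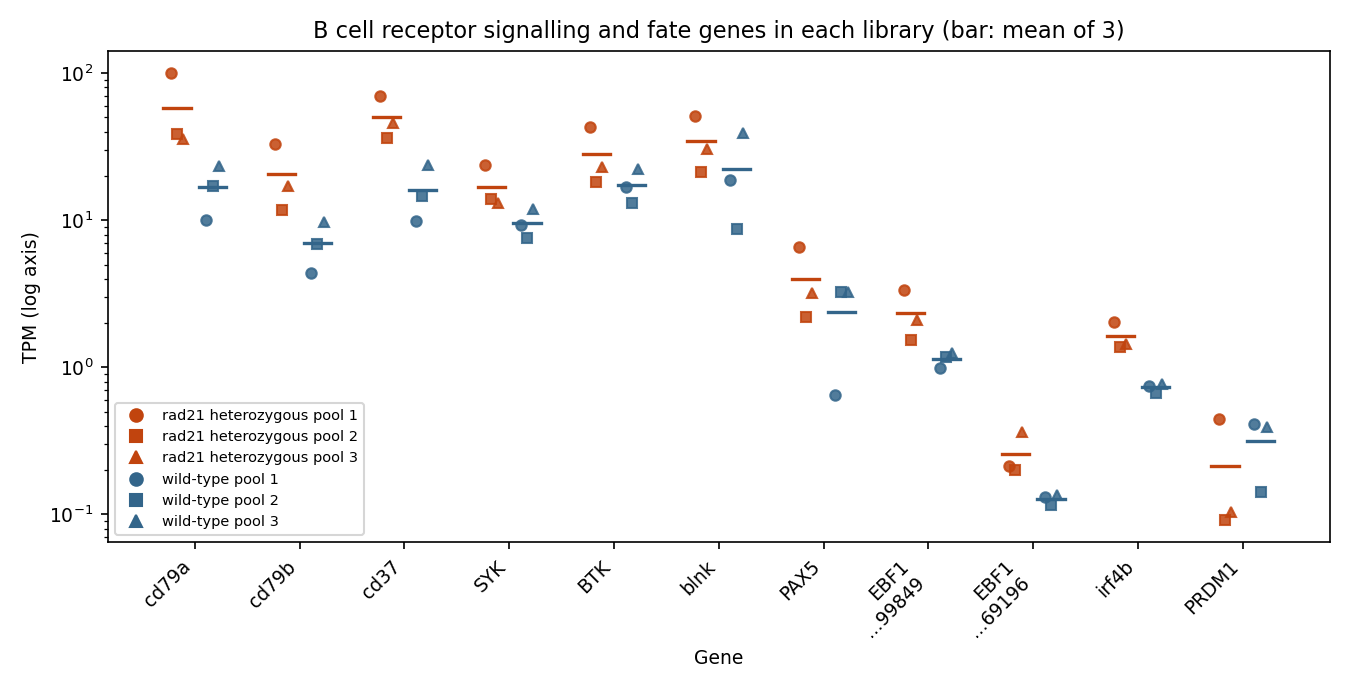
TPM of each gene in each library on a log axis, with rad21 heterozygous pools in orange and wild-type pools in blue, pool number by symbol, and bars for the mean of 3. cd79a, cd79b and cd37 do not overlap between groups, blnk, BTK, PAX5 and PRDM1 do, and heterozygous pool 1 is the highest library for every gene shown but EBF1 (ENSDARG00000069196), whose label gives the last digits.

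Downstream of the receptor, SYK (ENSDARG00000008186) stood at 23.8, 13.9 and 13.02 TPM in heterozygous pools 1 to 3, against 9.33, 7.61 and 12.02 TPM in wild-type pools 1 to 3. The groups did not overlap, though heterozygous pool 3 and wild-type pool 3 lay close. Its log2 fold change was 0.72, with an interval from 0.003 to 1.44 (limma adjusted p = 0.33). BTK (ENSDARG00000004433) stood at 42.8, 18.3 and 23.04 TPM in heterozygous pools 1 to 3, against 16.7, 13.2 and 22.3 TPM in wild-type pools 1 to 3. The BTK groups overlapped, and the log2 fold change was 0.60, with an interval from -0.26 to 1.46 (limma adjusted p = 0.47). The adaptor blnk (ENSDARG00000042722) stood at 51.6, 21.3 and 30.6 TPM in heterozygous pools 1 to 3, against 18.7, 8.72 and 39.1 TPM in wild-type pools 1 to 3. It varied most within the wild type of these 3 genes, with groups that overlapped and a log2 fold change of 0.76 (interval -0.57 to 2.09, limma adjusted p = 0.55). The blnk value was 0.25 without wild-type pool 2, 1.27 without wild-type pool 3 and 0.43 without heterozygous pool 1. Without heterozygous pool 1, the group means were 1.39-fold apart for SYK, 1.19-fold for BTK and 1.17-fold for blnk, and the log2 fold changes of SYK and BTK were 0.46 and 0.26. SYK and BTK are also used by myeloid cells in mammals, and the part of the neutrophil transcripts of heterozygous pool 1 in these values was not tested.

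The lineage regulators were low. PAX5 (ENSDARG00000037383) stood at 6.63, 2.21 and 3.19 TPM in heterozygous pools 1 to 3, against 0.651, 3.27 and 3.24 TPM in wild-type pools 1 to 3. Groups overlapped, the medians were nearly equal at a ratio of 0.984, and the log2 fold change of 0.59 had an interval from -0.55 to 1.74 (limma adjusted p = 0.58). That value was 0.14 without wild-type pool 1, 0.24 without heterozygous pool 1 and 1.503 without wild-type pools 2 and 3. The EBF1 gene ENSDARG00000099849 stood at 3.37, 1.52 and 2.08 TPM in heterozygous pools 1 to 3, against 0.983, 1.17 and 1.25 TPM in wild-type pools 1 to 3. Its groups did not overlap, with a log2 fold change of 0.60 and an interval from 0.04 to 1.17 (limma adjusted p = 0.31), and it was 0.39 without heterozygous pool 1. The EBF1 gene ENSDARG00000069196 lay between 0.200 and 0.363 TPM in heterozygotes and between 0.116 and 0.135 TPM in the wild type, under the filter of the test.

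The factors of later fate, irf4b and PRDM1, were also low. The interferon regulatory factor irf4b (ENSDARG00000055374) stood at 2.04, 1.38 and 1.45 TPM in heterozygous pools 1 to 3, against 0.749, 0.674 and 0.772 TPM in wild-type pools 1 to 3. Wild-type pools were tightly grouped, heterozygous pools all lay above them, and the log2 fold change was 0.59, with an interval from 0.19 to 0.99 (limma adjusted p = 0.20). Only heterozygous pools reached 1 TPM, so irf4b passed the filter through the group in which it was higher. Its interval and lack of overlap are therefore descriptions only. PRDM1 (ENSDARG00000002445) stood at 0.446, 0.0915 and 0.104 TPM in heterozygous pools 1 to 3, against 0.410, 0.143 and 0.393 TPM in wild-type pools 1 to 3. Groups overlapped at a level too low for the filter, and in a fit without a filter the log2 fold change was -0.12 (SE 0.14, limma adjusted p = 0.68). PRDM1 was the 1 gene of the 11 with a negative fold change in that fit. The second zebrafish copy, prdm1b, stood at 1.25, 0.859 and 1.001 TPM in heterozygous pools 1 to 3, against 1.79, 1.08 and 1.36 TPM in wild-type pools 1 to 3, and was chosen after its values were seen. The prdm1b groups overlapped, with heterozygous pool 1 above wild-type pool 2.

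Described over all 11 genes with no filter, the median log2 fold change was 0.60, against -0.03 over 28762 genes, and 10 were positive, against 43.9%. Groups did not overlap, with the heterozygotes higher, for 7 of the 11, against 10% of those 28762 genes. Of all 16537 tested genes, 11.9% did not overlap with heterozygotes higher and 9.79% with heterozygotes lower. In this limma fit 0 of the 11 were called, against 0.459% of all genes, and 5 had an unadjusted p under 0.05, against 13.5% of all genes.

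**Figure D2:**
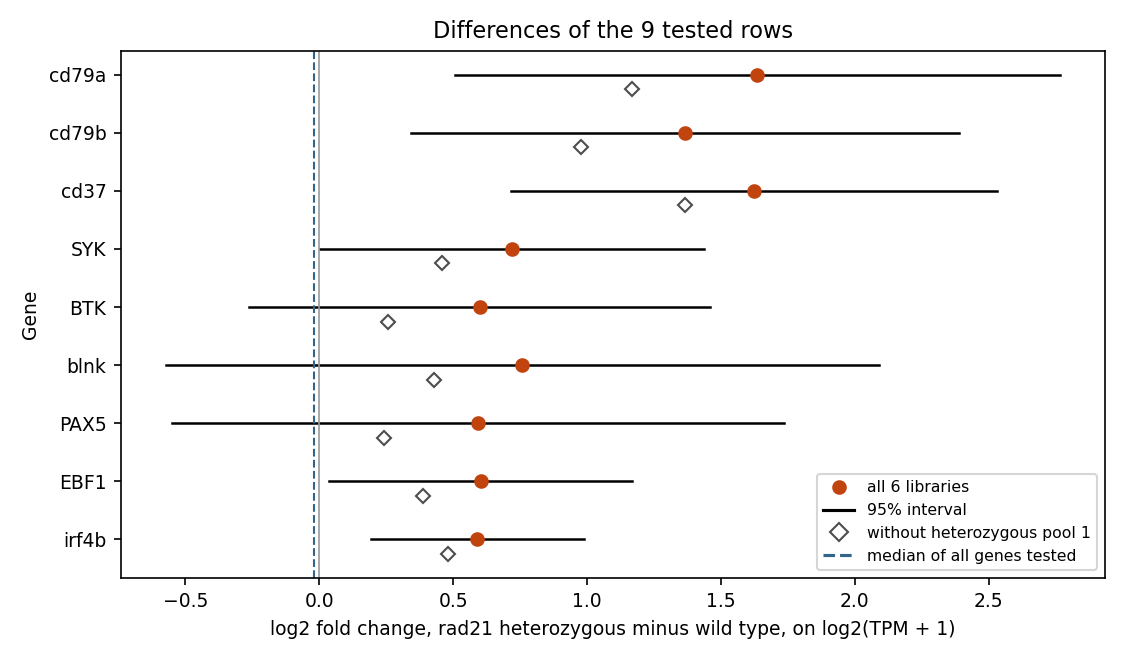
Log2 fold change of each tested gene, heterozygous minus wild type on log2(TPM + 1), with its 95% interval (line) and the value without heterozygous pool 1 (open diamond). All 9 points lie above the median of all tested genes, -0.02 (dashed line). For irf4b this was fixed by the filter, which it passed only through the heterozygous pools. The intervals of PAX5, blnk and BTK include 0, and every value is smaller without heterozygous pool 1.

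Since TPM is scaled by length, levels can be set in order between genes. In the heterozygotes the order by mean TPM was cd79a, cd37, blnk, BTK, cd79b, SYK, PAX5, EBF1 (ENSDARG00000099849), irf4b, EBF1 (ENSDARG00000069196) and PRDM1. Only the steps from SYK to PAX5 and from irf4b to the lower EBF1 gene were larger than the larger SD of the neighbours there. In the wild type the order was blnk, BTK, cd79a, cd37, SYK, cd79b, PAX5, EBF1 (ENSDARG00000099849), irf4b, PRDM1 and EBF1 (ENSDARG00000069196), and no step among the top 6 genes, from 22.2 ± 15.5 TPM for blnk to 7.01 ± 2.70 TPM for cd79b (SD, n = 3 each), exceeded the larger SD of its neighbours. The receptor chain cd79a thus had the highest mean TPM in the heterozygotes. In the wild type blnk and BTK had higher means than cd79a, by less than the SD of blnk. In heterozygous pools 1 and 2 cd79a was above cd37, most in pool 1, at 100.2 against 69.95 TPM. In heterozygous pool 3 cd37 was higher, at 45.8 against 35.7 TPM. The heterozygous medians were 45.8 TPM for cd37 and 38.6 TPM for cd79a.

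Ratios within a library depend little on how that library was scaled. They set the other genes against the mean log2(TPM + 1) of cd79a and cd79b. That pair was chosen with results known and was itself higher in heterozygotes (log2 fold changes 1.64 and 1.37). A gene raised less than the pair therefore has a lower ratio in heterozygotes without being lower in TPM. The ratios share this denominator, so they are not independent of each other. BTK lay at -0.42, -0.21 and -0.10 relative to the pair in heterozygous pools 1 to 3, against 1.2, 0.25 and 0.53 in wild-type pools 1 to 3. In plain TPM, BTK was 0.322, 0.364 and 0.437 of the summed chains in heterozygous pools 1 to 3, against 1.16, 0.548 and 0.675 in wild-type pools 1 to 3. All heterozygous pools were thus below all wild-type pools, with a difference in the log2 ratio of -0.90 (two-sided exact permutation p = 0.1, the smallest that 3 against 3 allows, adjusted p = 0.16 over 8 ratios). SYK lay at -1.24, -0.59 and -0.88 in heterozygous pools 1 to 3, against 0.42, -0.47 and -0.31 in wild-type pools 1 to 3, a difference of -0.78 without overlap (exact permutation p = 0.1, adjusted p = 0.16). The blnk ratio overlapped, at a difference of -0.74 (exact permutation p = 0.4, adjusted p = 0.46), with wild-type pool 2 at -0.30 as the lowest library. For cd37 the difference was 0.12 (exact permutation p = 0.5, adjusted p = 0.50), and for cd79b against cd79a it was -0.27 (exact permutation p = 0.4, adjusted p = 0.46). PAX5, EBF1 (ENSDARG00000099849) and irf4b had differences of -0.91, -0.90 and -0.91 without overlap (exact permutation p = 0.1 each, adjusted p = 0.16), but a pseudocount of 1 compresses genes this low. With a pseudocount of 0.1 the PAX5 and irf4b ratios overlapped, at differences of -0.72 and -0.56 (exact permutation p = 0.3 and 0.4, adjusted p = 0.46 each), while those of EBF1, BTK and SYK did not (exact permutation p = 0.1, adjusted p = 0.27 each). In plain TPM, EBF1 (ENSDARG00000099849) was 0.0253, 0.0303 and 0.0395 of the summed chains in heterozygous pools 1 to 3, against 0.0679, 0.0489 and 0.038 in wild-type pools 1 to 3, so its groups overlapped with no pseudocount. SYK did not overlap in plain TPM, at 0.179, 0.276 and 0.247 of the summed chains in heterozygous pools 1 to 3, against 0.645, 0.317 and 0.364 in wild-type pools 1 to 3.

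**Figure D3:**
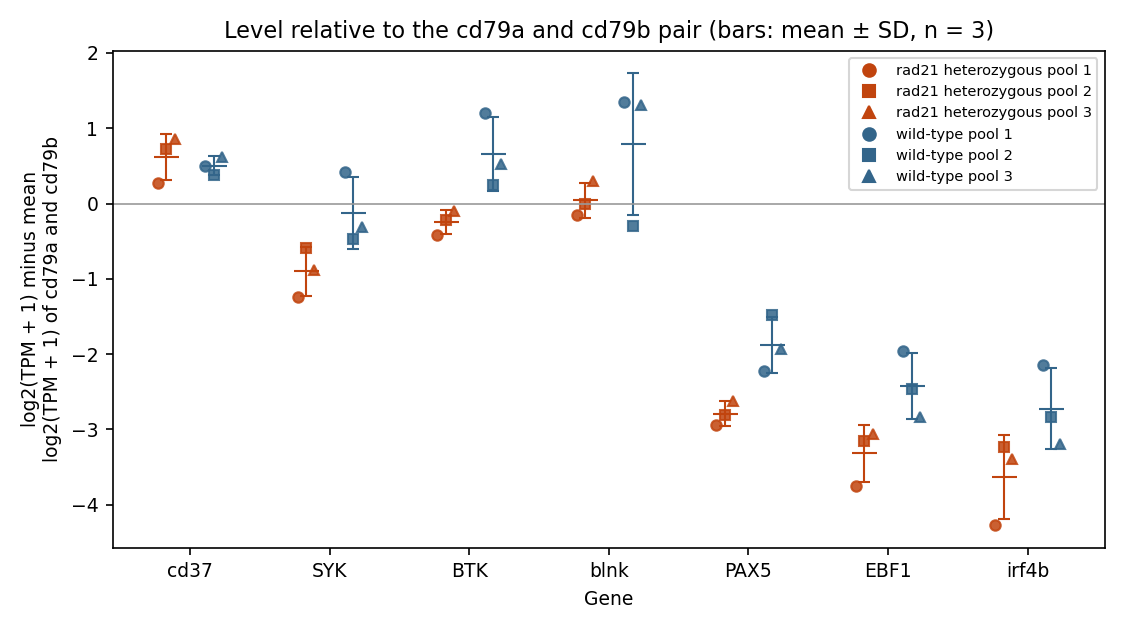
Level of each gene relative to the cd79a and cd79b pair, as log2(TPM + 1) minus the mean of the pair, per library, with bars for mean ± SD of 3 heterozygous (orange) and 3 wild-type (blue) pools. Heterozygous pools lie below wild-type pools for SYK, BTK, PAX5, EBF1 and irf4b, and the groups overlap for cd37 and blnk.

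Other genes of B cell receptor signalling were read from the same fit. Over all tested genes 7.12% had an unadjusted limma p under 0.05 with heterozygotes higher and 7.88% with heterozygotes lower. The counts of this list and of those below stand beside these shares. Of 27 listed genes 25 were tested and 0 were called in either direction, with 4 at an unadjusted limma p under 0.05. Their median log2 fold change was 0.33 and 23 were positive, against a median of -0.02 and 48.1% positive over all tested genes, and without heterozygous pool 1 their median was 0.10. The gene bcl10, an adaptor that links the receptor to NF-kappa B, stood at 8.04, 4.36 and 4.84 TPM in heterozygous pools 1 to 3, against 2.02, 1.80 and 2.82 TPM in wild-type pools 1 to 3, with no overlap (log2 fold change 1.04, limma adjusted p = 0.17). A protein kinase C beta gene of the same pathway, PRKCB (ENSDARG00000022254), averaged 8.81 ± 4.13 TPM in heterozygotes and 4.05 ± 0.628 TPM in the wild type (SD, n = 3 each, limma adjusted p = 0.28). VAV3, an exchange factor for small GTPases, averaged 1.86 ± 0.815 TPM in heterozygotes and 0.542 ± 0.248 TPM in the wild type (SD, n = 3 each, limma adjusted p = 0.21), and it entered the test only through the heterozygous pools. GRB2, an adaptor, was lower, at 2.2 ± 0.344 TPM in heterozygotes and 3.83 ± 0.989 TPM in the wild type (SD, n = 3 each, limma adjusted p = 0.31).

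Among other regulators of the B lineage, 16 of 22 were tested and 0 called, with 1 at an unadjusted limma p under 0.05, a median log2 fold change of 0.14 and 11 positive. IKZF1, the lymphoid zinc finger factor Ikaros, stood at 53.05, 38.2 and 36.2 TPM in heterozygous pools 1 to 3, against 27.5, 18.8 and 33.2 TPM in wild-type pools 1 to 3 (log2 fold change 0.68, limma adjusted p = 0.33). The factors tcf3a, an E protein, and foxp1b had log2 fold changes of -0.34 and -0.35 (limma adjusted p = 0.43 and 0.46), and spi1a, a PU.1 gene shared with myeloid cells, had 0.49 (limma adjusted p = 0.47). Without heterozygous pool 1 the median of this list was -0.12.

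Genes of the recombination machinery that assembles the receptor were 6 tested of 7, with 0 called, 2 at an unadjusted limma p under 0.05, a median log2 fold change of 0.37 and 4 positive. Without heterozygous pool 1 their median was 0.13, and the log2 fold changes of RAG1 and RAG2 were 0.24 and 0.51, against 0.67 and 0.82 with all libraries. RAG2, a subunit of the recombinase, stood at 4.16, 1.47 and 2.03 TPM in heterozygous pools 1 to 3, against 0.799, 0.880 and 1.1 TPM in wild-type pools 1 to 3, with no overlap (log2 fold change 0.82, limma adjusted p = 0.27). Its partner RAG1 overlapped, at 7.18, 1.81 and 3.07 TPM in heterozygous pools 1 to 3, against 1.49, 1.77 and 2.38 TPM in wild-type pools 1 to 3 (limma adjusted p = 0.46). DCLRE1C, the nuclease Artemis, averaged 10.9 ± 0.976 TPM in heterozygotes and 6.65 ± 1.5 TPM in the wild type (SD, n = 3 each, limma adjusted p = 0.26). The repair factor xrcc4 averaged 12.9 ± 1.85 TPM in heterozygotes and 16.6 ± 5.56 TPM in the wild type (SD, n = 3 each, limma adjusted p = 0.65).

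The immunoglobulin genes, which the chains accompany, were 6 of 6 positive with 0 called, 4 at an unadjusted limma p under 0.05, and a median log2 fold change of 1.67 that was 1.11 without heterozygous pool 1. The ratio of ighm, the IgM heavy chain, to cd79a in TPM was 5.40, 3.99 and 5.19 in heterozygous pools 1 to 3, against 3.98, 2.34 and 5.01 in wild-type pools 1 to 3, so the groups overlapped. The light-chain genes igic1s1, igl4v8 and igl3v5 had log2 fold changes of 2.69, 1.79 and 1.54 (limma adjusted p = 0.14, 0.23 and 0.33), and ighm had 2.1 (limma adjusted p = 0.21). Similar immunoglobulin genes can share reads, so these values are uncertain.

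Genes of plasma cells and the secretory pathway, all 15 tested, had a median log2 fold change of 0.01 (-0.02 without heterozygous pool 1), 8 positive and 0 called, with 2 at an unadjusted limma p under 0.05. DNAJB11, a chaperone of the endoplasmic reticulum, stood at 72.1, 68.7 and 77.8 TPM in heterozygous pools 1 to 3, against 35.02, 38.3 and 42.8 TPM in wild-type pools 1 to 3 (log2 fold change 0.90, limma adjusted p = 0.097). The elongation factor ELL2, which promotes secreted immunoglobulin in mouse plasma cells, was lower, at 7.71 ± 0.414 TPM in heterozygotes and 13.1 ± 2.87 TPM in the wild type (SD, n = 3 each, limma adjusted p = 0.25). DERL3, of protein removal from the endoplasmic reticulum, had a log2 fold change of 0.46 (limma adjusted p = 0.41), and fkbp11, a secretory chaperone that was highest in wild-type pool 2 at 45.8 TPM, had -0.86 (limma adjusted p = 0.46).

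Survival and help signals for B cells, 9 tested of the 9 found, had a median of 0.16, 6 positive and 0 called, with 1 at an unadjusted limma p under 0.05. Without heterozygous pool 1 their median was -0.04. The listed names tnfrsf13b, tnfrsf13c and tnfrsf17 were not found. The chemokine receptor CCR7 stood at 1.3, 1.23 and 1.35 TPM in heterozygous pools 1 to 3, against 2.46, 2.07 and 3.37 TPM in wild-type pools 1 to 3 (log2 fold change -0.65, limma adjusted p = 0.22). CXCR5, the receptor that guides B cells to follicles in mammals, overlapped, at 3.21, 1.37 and 1.71 TPM in heterozygous pools 1 to 3, against 0.886, 0.811 and 2.04 TPM in wild-type pools 1 to 3 (limma adjusted p = 0.51). The NF-kappa B subunit gene nfkb2 and the B cell survival factor tnfsf13b had log2 fold changes of -0.34 and 0.27 (limma adjusted p = 0.61 and 0.64).

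**Figure D4:**
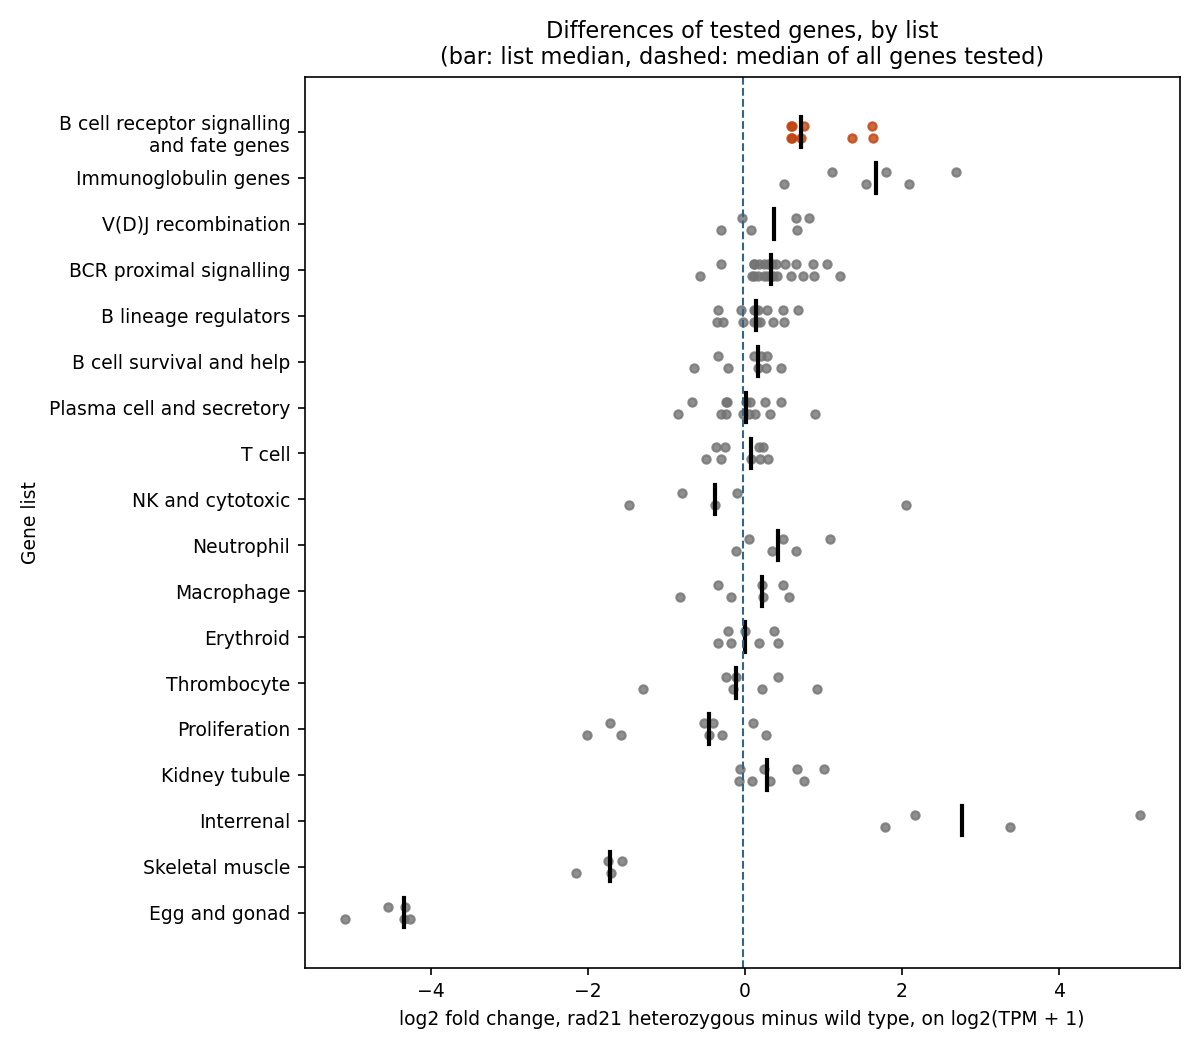
Log2 fold changes of tested genes by list, heterozygous minus wild type on log2(TPM + 1), with 1 point per gene, a bar for the list median and a dashed line for the median of all tested genes. The medians are 0.72 for the 9 tested genes of receptor signalling and fate and 1.67 for immunoglobulin genes. They are between 0.01 and 0.42 for the other B cell lists and those of T cells, neutrophils, macrophages and kidney tubule. The 9 include irf4b, which entered the test only through the heterozygous pools. Medians farther out or below 0 are -0.003 for erythroid, -0.11 for thrombocyte, -0.38 for cytotoxic, -0.45 for proliferation, -1.72 for skeletal muscle, -4.34 for egg and 2.77 for interrenal genes.

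Markers of other blood cells were read beside these values. The T cell list, 12 genes of which 9 were tested, summed to 29.9, 20.9 and 20.1 TPM in heterozygous pools 1 to 3, against 26.1, 22.99 and 24.1 TPM in wild-type pools 1 to 3, with a median log2 fold change of 0.07 that was -0.14 without heterozygous pool 1. Of its 9 tested genes 5 were positive and 0 were higher in heterozygotes without overlap. The other direction, lower without overlap, held for 2 of the 9, against 9.79% of all tested genes. These were TCF7 and cd28 (log2 fold changes -0.36 and -0.50, limma adjusted p = 0.37 and 0.39). The macrophage list of 7 genes summed to 936, 714 and 620.3 TPM in heterozygous pools 1 to 3, against 619, 959 and 927 TPM in wild-type pools 1 to 3. Of these 7 genes 4 were positive and 2 were higher in heterozygotes without overlap, against 11.9% of all tested genes. Those 2 were c1qb and c1qc (log2 fold changes 0.56 and 0.48, limma adjusted p = 0.29 and 0.31). The neutrophil list had a median log2 fold change of 0.42, which was 0.12 without heterozygous pool 1. No gene of these 3 lists was called, 0 of 9 for T cells (0 at an unadjusted limma p under 0.05), 0 of 7 for macrophages (2) and 0 of 6 for neutrophils (1), and no listed gene was at 0 in every library. The erythroid list of 8 genes summed to 14547, 42799 and 32001 TPM in heterozygous pools 1 to 3, against 54947, 13970 and 26726 TPM in wild-type pools 1 to 3, and globin genes held 8.16%, 18.8% and 12.2% of the TPM there, against 22.2%, 6.18% and 12.5%. Heterozygous pool 1, the highest library for most of the receptor genes, was thus the lowest heterozygous pool for globin, and wild-type pool 1, the lowest for 5 of the 9 tested genes, was the highest of all. Wild-type pool 2, the lowest library for the other 4 tested genes, held the least globin of all, at 6.18%. With globin and mitochondrial genes removed and TPM rescaled, the log2 fold changes of cd79a, cd79b and cd37 were 1.65, 1.39 and 1.63 (limma adjusted p = 0.161, 0.182 and 0.101). Of the 5 tested cytotoxic genes 1 was positive, and nkl.4, an NK-lysin gene, averaged 24.6 ± 6.59 TPM in heterozygotes and 70.05 ± 16.8 TPM in the wild type (SD, n = 3 each, limma adjusted p = 0.068). The positive gene was nkl.2, another NK-lysin gene, at 36.3, 479.1 and 28.1 TPM in heterozygous pools 1 to 3. Wild-type pools 1 to 3 held 17.7, 23.3 and 14.9 TPM of nkl.2 (limma adjusted p = 0.40). The cytotoxic list summed to 77.8, 559.2 and 67.2 TPM in heterozygous pools 1 to 3. Its sums in wild-type pools 1 to 3 were 121.8, 116.6 and 168.4 TPM. The thrombocyte list summed to between 68.4 and 69.99 TPM in heterozygotes and between 38.3 and 108.5 TPM in the wild type. Of the 9 proliferation genes 2 were positive and 4 were lower in heterozygotes without overlap, against 9.79% of all tested genes. The largest proliferation sum, 1171 TPM, was that of the egg-rich wild-type pool 2. Wild-type pool 1 had the smallest, 512 TPM, and the heterozygous pools lay between, from 533 to 671 TPM. The part of egg tissue in the proliferation values was not tested. Limma called 0 genes of the erythroid, cytotoxic, thrombocyte, kidney tubule, proliferation and egg lists, with 0, 1, 1, 0, 4 and 5 at an unadjusted p under 0.05. The list of interrenal genes, a steroid-making tissue beside the marrow, reached a sum of 7.73, 475.1 and 715.6 TPM in heterozygous pools 1 to 3, against 3.32, 33.4 and 10.1 TPM in wild-type pools 1 to 3. Skeletal muscle genes summed to 7.52, 15.1 and 9.91 TPM in heterozygous pools 1 to 3, against 69.6, 34.6 and 40.8 TPM in wild-type pools 1 to 3. Of 4 tested genes in each of these lists, limma called 1 higher among the interrenal genes and 1 lower among the muscle genes. Over all tested genes 0.81% were called higher and 0.562% lower. An unadjusted limma p under 0.05 was reached by 1 of the 4 interrenal genes and by all 4 muscle genes. All 4 muscle genes were lower without overlap, against 9.79% of all tested genes. Of the interrenal genes 1 was higher without overlap, against 11.9%. The part of these cells and tissues in the values of the receptor genes was not tested.

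Likeness in pattern to the mean of cd79a and cd79b on log2(TPM + 1) was ranked over the 6 libraries. Only genes outside the examined set with a gene-like symbol, not an identifier or clone name, were ranked. The most like were atf6, igl3c3, igic1s1, GABRD and EFR3B (ENSDARG00000069318), with Pearson correlations from 0.992 to 0.997. Of all 16537 tested genes, 219 reached 0.95 over the same 6 libraries, and 23.5% of tested genes had heterozygous pool 1 as their highest library. The first, atf6, an endoplasmic reticulum stress sensor, stood at 12.2, 7.98 and 8.72 TPM in heterozygous pools 1 to 3, against 4.52, 5.58 and 6.44 TPM in wild-type pools 1 to 3 (limma adjusted p = 0.26). Both igl3c3 and igic1s1 are light-chain genes, and GABRD and EFR3B did not exceed 3.20 TPM in any library. Among the genes examined here the same measure was 0.976 for cd37, 0.964 for EBF1 (ENSDARG00000099849), 0.929 for irf4b, 0.923 for SYK, 0.869 for BTK, 0.842 for PAX5 and 0.701 for blnk.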

How the data were processed

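RNA from 6 libraries was measured by bulk RNA sequencing, after column extraction and Illumina TruSeq library preparation per the labels' protocols. The deposited values are TPM made by the authors, and the submitters' processing notes name FastQC, HISAT2 2.0.4, featureCounts and genome build GRCz11. Gene annotation, gene lengths, strand setting and multi-mapped reads are not stated there, so copies and overlapping genes may share reads. TPM sums to 1000000 per library and keeps no depth, so no counting interval was computed.

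Genes were compared in limma 3.58.1, run in R 4.3.3, with log2(TPM + 1) as the response, genotype as the only term, a mean trend of the variance and two-sided p-values adjusted by Benjamini-Hochberg over all 16537 genes with at least 1 TPM in at least 3 libraries. Fold changes on this scale understate the change of low genes. Within-library ratios were compared by exact permutation in scipy 1.17.1. The fit was tested on simulated data with known changes. It recovered 1.35% of the 74 genes given a log2 change of 1. For a log2 change of 2 it recovered 63.0% of 54 genes, and for 3 it recovered 83.3% of 72 genes. Of its 99 calls, 4 were false. Genes with a log2 change of 1 were thus seldom called there, so a gene left uncalled in the real data may still differ. The simulated errors were independent between genes, with no shift shared by the genes of a library. Changes were given only to genes with a mean log2(TPM + 1) above 2. The 4 false calls therefore do not give the error rate of the real calls, and lower genes were not covered.

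The genes, lists, tests and alternatives were chosen with earlier results of these data known. List counts cover only the names that were found. Not found in the B cell lists were vav1, lat2, pou2af1, ikzf3, spib, prdm1c, mzb1, sec11c, tnfrsf13b, tnfrsf13c, tnfrsf17 and ighz. Lists of other cells also lacked names, among them mpx, cpa5 and lect2l for neutrophils. Named genes were the members, rad21a, up to 4 per B cell list by smallest p, and 5 by likeness. These 5 were the most like the cd79a and cd79b mean among other tested genes with a gene-like symbol. From the lists of other cells TCF7, cd28, c1qb, c1qc, adam8a, lyz, nkl.2 and nkl.4 were named, each among the 4 smallest p of its list. The gene prdm1b was named outside these rules, after its values were seen. Alternatives covered the pseudocount, the filter, scaling, the variance trend, a replicate block, the threshold and leaving out libraries. Gene positions and sequences were not used here.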

Additional observations from a re-analysis of the deposited data

How the results depend on the processing

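None of the tested genes of receptor signalling and fate passed the threshold under any alternative run. With no filter PRDM1 was negative, at a log2 fold change of -0.12. The fold changes of the 9 genes in the reported fit stayed positive in every run that tested them. For irf4b the sign was fixed by the filter, which it passed only through the heterozygous pools. The median log2 fold change of these genes ranged from 0.46 without heterozygous pool 1 to 1.06 under the stricter filter of 5 TPM, which kept 6 of them. The smallest adjusted p reached by a gene was 0.067, for cd37 after median-ratio rescaling. The count of called genes over the whole table moved more: 132 with no filter, 117 with the stricter filter, which tests 9755 genes, 397 at an adjusted p under 0.1, 53 without wild-type pools 2 and 3 together, and from 90 to 1088 with 1 library left out. Quantile normalization called 183 higher and 77 lower, against 134 and 93 in the reported fit. With replicate number as a block 25 genes were called, 0 of them among the receptor signalling and fate genes. Same-numbered pools did not deviate together (correlations across genes of -0.27, 0.12 and -0.13 for numbers 1, 2 and 3), and not every pool correlated best with its own number, so the numbers were not treated as pairs. Of the single genes named from the B cell lists, DNAJB11 passed after median-ratio rescaling (log2 fold change 0.92, limma adjusted p = 0.048). Single genes from the lists of other cells were not followed through the alternative runs. At the threshold of 0.1, DNAJB11 and nkl.4 passed in the reported fit (limma adjusted p = 0.097 and 0.068). The fold changes of fkbp11 and xrcc4 turned to 0.14 and 0.26 when wild-type pools 2 and 3 were left out. The cause of these shifts was not tested. All 8 ratios to the receptor pair or between its chains kept their direction with a pseudocount of 0.1 and with any 1 library left out. The cd37 difference was 0.0016 without heterozygous pool 3 and 0.29 without heterozygous pool 1, so its direction says little. Depth is unknown, so what the low values of PRDM1, irf4b and the EBF1 genes could resolve is unknown too.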
